A study of Mus musculus with 8 samples.

Results

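The nuclear genes of respiratory complexes II to V were described in mouse liver after knockdown of Eif4ebp3, the gene of a repressor of cap-dependent translation. Members were chosen by gene symbol: the succinate dehydrogenase subunits Sdha to Sdhd, symbols beginning with Sdhaf, Uqc, Atp5 or with Cox and a digit, and the cytochromes Cyc1 and Cycs, with pseudogene names left out. This rule found 68 of 55536 genes with an identifier, under 67 symbols, because Atp5o is listed under 2 identifiers. The liver RNA came from lean wild-type C57BL/6 mice aged 2 months. In the control group (n = 4) the mice had received an adenovirus with a hairpin RNA against the bacterial gene lacZ, and in the knockdown group (n = 4) an adenovirus with a hairpin against Eif4ebp3. Both groups had received 0.1 OD of virus, had been fed freely and then fasted overnight, and were collected 1 week after the injection, so no sample is free of virus. Whole liver was measured, and the sources used here do not say which cells the virus reached. The labels do not state that each sample is a separate animal, so a p-value reflects only how much these samples vary.

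The respiratory chain carries electrons along the inner mitochondrial membrane and uses the energy to pump protons. Complex II (succinate dehydrogenase) feeds electrons from the citric acid cycle into coenzyme Q, complex III passes them to the soluble carrier cytochrome c, complex IV (cytochrome c oxidase) hands them to oxygen, and complex V (ATP synthase) lets protons flow back and makes ATP. Complexes III, IV and V combine nuclear subunits with a few made from mitochondrial DNA, complex II is wholly nuclear, and hepatocytes depend on the chain for gluconeogenesis and fat oxidation during fasting.

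Some subunits exist as paralogs used in different tissues, and reads of a pair can be told apart only where the sequences differ. The Cox6b and Atp5g genes, which make up 3 of the 5 pairs with a tested ratio, are shown by the 60 coding bases in which they are most alike in GENCODE mouse release 21. Capitals mark the bases that differ from the gene named before in its set, Cox6b1 for Cox6b2 and Atp5g3 for both other Atp5g genes.
Cox6b1: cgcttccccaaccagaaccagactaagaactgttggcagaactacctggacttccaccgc
Cox6b2: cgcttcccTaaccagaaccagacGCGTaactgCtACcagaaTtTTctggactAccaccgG
Atp5g3: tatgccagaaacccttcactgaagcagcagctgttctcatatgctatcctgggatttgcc
Atp5g1: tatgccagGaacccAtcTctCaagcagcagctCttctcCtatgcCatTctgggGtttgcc
Atp5g2: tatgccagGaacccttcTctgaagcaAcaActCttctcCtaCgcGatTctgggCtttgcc
Of the 60 bases, 47 were equal between Cox6b1 and Cox6b2, 51 between Atp5g3 and Atp5g1, and 50 between Atp5g3 and Atp5g2. Over whole transcripts the longest run shared exactly was 14 bases for Cox6b1 and Cox6b2 and 12 bases for each of the Atp5g pairs.

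Promoters are shown for Cox6b2 and Uqcc2, members whose level was higher in the knockdown group, and for Atp5h, Cox6a1 and Uqcrh, which are among those that were lower relative to the median gene. The sequences are RefSeq's, on the GRCm38.p6 build (mm10), given 5′ to 3′ on the gene's strand. Each was cut to bases near the start and shortened to those in no exon of the basic transcript set of GENCODE release 21. In the full release Fam71e2 reaches chr7:4753226, inside the Cox6b2 stretch. Capitals mark matches to a motif of NRF1 (GCGCN followed by TGCGC) or of GABPA (CCGGAAGT), factors known for binding near respiratory genes. All matches shown are on the opposite strand, so the capitals are the reverse complement of the motif as spelled here. The stretches are chr7:4753095-4753228 for Cox6b2, chr17:27133917-27134041 for Uqcc2, chr11:115419963-115420069 for Atp5h, chr5:115348982-115349108 for Cox6a1 and chr4:116075072-116075220 for Uqcrh, all on the minus strand.
Cox6b2: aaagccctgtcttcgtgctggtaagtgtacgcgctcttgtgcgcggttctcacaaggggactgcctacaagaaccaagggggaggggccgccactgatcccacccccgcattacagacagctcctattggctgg
Uqcc2: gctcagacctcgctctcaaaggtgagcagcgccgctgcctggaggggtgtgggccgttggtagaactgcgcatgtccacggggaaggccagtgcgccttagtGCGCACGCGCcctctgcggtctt
Atp5h: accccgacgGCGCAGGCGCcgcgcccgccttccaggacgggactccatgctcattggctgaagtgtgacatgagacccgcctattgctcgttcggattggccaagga
Cox6a1: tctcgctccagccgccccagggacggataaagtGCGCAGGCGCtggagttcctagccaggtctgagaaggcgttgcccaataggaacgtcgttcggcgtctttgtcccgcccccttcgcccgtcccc
Uqcrh: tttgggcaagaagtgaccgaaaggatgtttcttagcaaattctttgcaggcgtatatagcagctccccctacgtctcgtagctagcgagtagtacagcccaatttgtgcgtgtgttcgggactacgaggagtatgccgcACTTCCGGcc
RefSeq windows of 250 bases before to 50 bases after the start were matched to 51 members, and 16 symbols had no match. Searched on both strands, the NRF1 motif was in 13 of the 51 (25.5%) against 5.19% of 27025 genes with a window, and the GABPA motif in 8 (15.7%) against 4.31%. A YY1 motif (AANATGG followed by CGGC) was in 2 members (3.92%) against 1.17% of all genes. No motif contains another, and at least 1 of the 3 motifs was found for 36.1% of the 36 members later called lower and 61.5% of the 13 other tested members with a window. By motif these shares were 27.8% and 23.1% for NRF1, 11.1% and 30.8% for GABPA, and 0.0% and 15.4% for YY1. By role, at least 1 motif was found for 36.1% of subunits and 57.1% of assembly factors with a window. A match describes letters in a window, and these shares were not tested.

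The estimated counts summed, per sample, to between 24371461 and 32389444. Levels are given in CPM, counts scaled to a common total that was first multiplied by the sample's TMM factor, a scaling that assumes most genes do not change. The scaling matters here: with plain totals in its place, the median log2 fold change of the 15375 genes tested moved up by 0.567, and every direction below is therefore relative to the median gene. Eif4ebp3 itself was at 290, 216, 204 and 49.3 CPM in the controls and at 9.62, 13.9, 37.2 and 19.5 CPM in the knockdown samples. The groups did not overlap, but control replicate 4 lay well below the other controls, and knockdown replicate 3 was the highest of its group. The log2 fold change of Eif4ebp3 was -3.24 ± 0.53 (standard error; adjusted p = 0.000379).

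The liver label was checked against cell type markers, and cell type markers moved between the groups. Hepatocyte markers were abundant in all samples, with summed levels of 86390 to 113400 CPM in controls and 67540 to 88610 CPM in knockdown. Of 14, 12 were lower and none higher, while Alb and Trf did not pass. Of the tested markers, 14 of 15 macrophage genes rose (summed 653 to 863 against 1733 to 2028 CPM), as did 12 of 13 T and NK cell genes (19.0 to 34.5 against 55.6 to 77.6 CPM) and 9 of 12 stellate cell genes (232 to 283 against 596 to 1017 CPM). The remaining T and NK cell gene, Cd4, fell by 1.75 ± 0.16 on the log2 scale (adjusted p = 7.12e-06) and by 1.19 with total counts. With total counts 9 hepatocyte markers were lower and 2 higher, and all 15 macrophage, 12 T and NK cell and all 12 stellate markers were higher. Of all 15375 tested genes, 27.8% were lower and 29.5% higher with TMM factors, and 7.72% lower and 63.9% higher with total counts. Of the markers that were not tested for low counts, Timd4 and Ncr1 belong to the macrophage and the T and NK cell lists. In bulk liver, fewer cells of a type and less RNA per cell cannot be told apart, and the part of cell composition in the results below was not tested.

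Relative to the median gene, most nuclear genes of complexes II to V were lower in the knockdown livers, and a small set led by the testis-type subunit Cox6b2 was higher. Of the 68 members 60 had enough counts for the test, and of these 44 fell and 4 rose (edgeR's quasi-likelihood test, adjusted p under 0.05), against a background of 27.8% of all tested genes lower and 29.5% higher. The median log2 fold change of the tested members was -0.41, at the 24.5th percentile of all genes tested, whose median was -0.0032. Their groups did not overlap for 38 members that were lower and 4 that were higher, against 24.7% and 27.4% of all genes. With total-count scaling none of the 60 passed as lower and 27 passed as higher (background 7.72% and 63.9%), with a median of 0.16 against 0.564 for all genes. The change of scaling moves all genes nearly alike, so the typical member lay below the typical gene on both scales, which is a single comparison. On the TMM scale 51 of 60 members were below the all-gene median. As a share of a library's counts, all members together held 0.746 to 0.803% in controls and 0.789 to 0.890% in knockdown, ranges that overlap. The authors' deposited table lists 44 members as lower and 5 as higher at an adjusted p under 0.05 (7.82% and 8.54% of its 55536 genes), and its 44 lower members were those found here. Its higher members were the 4 found here and Cox4i2.

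**Figure D1:**
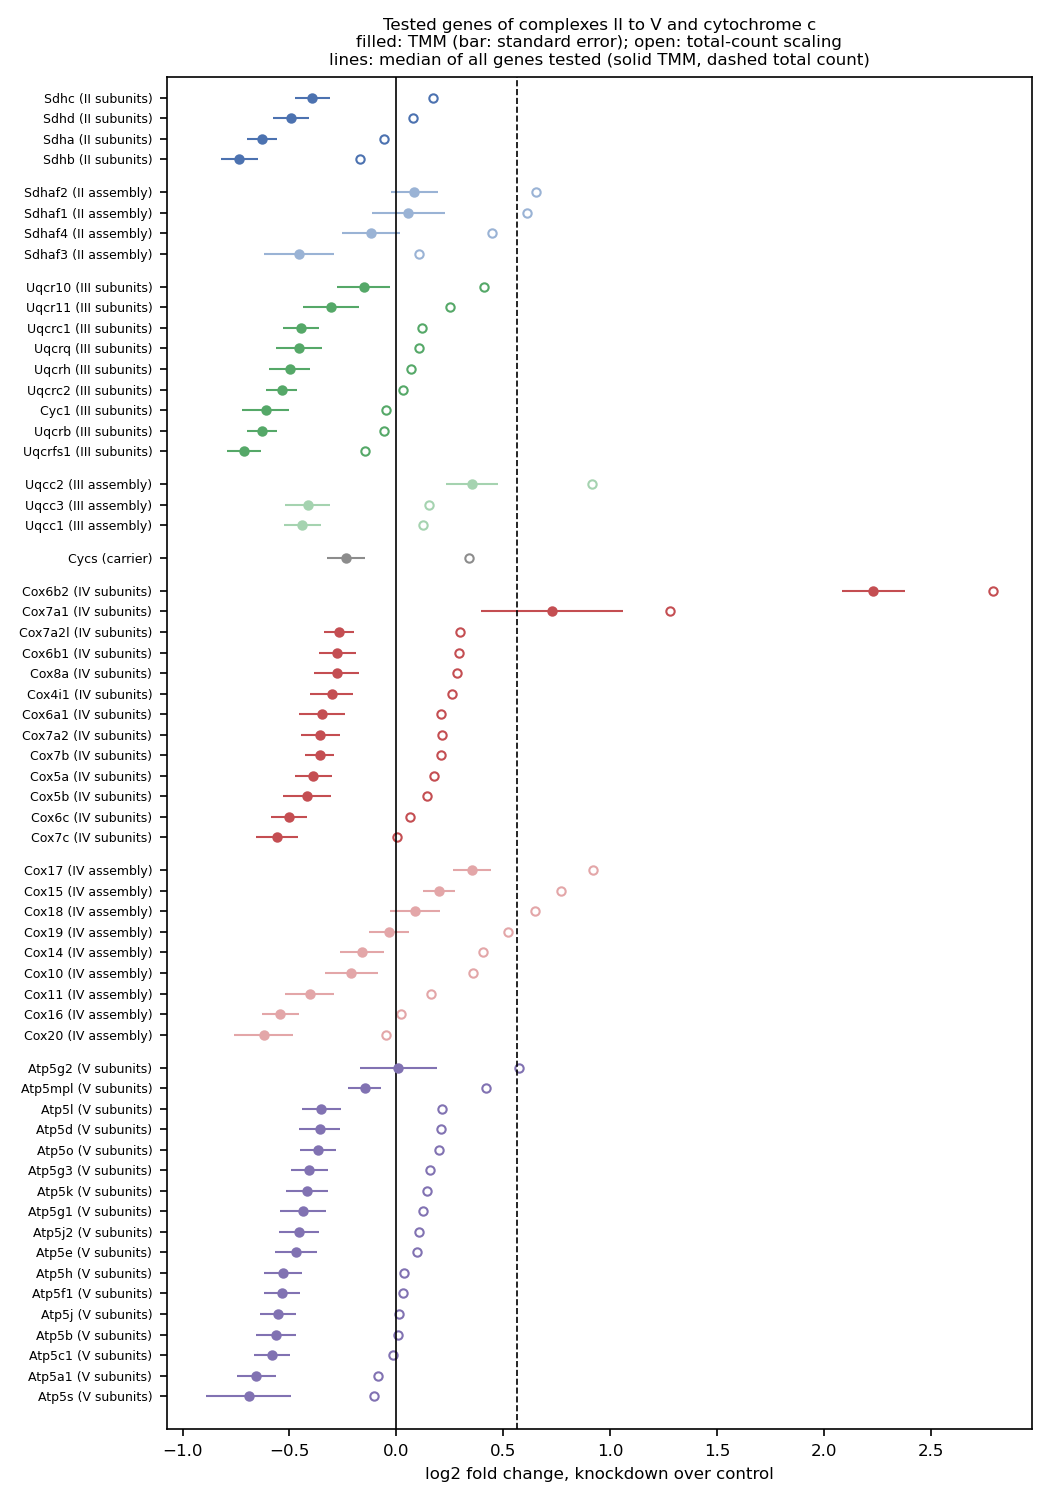
Log2 fold change of knockdown over control for the 60 tested genes, grouped by complex and role on the vertical axis, with filled points and standard error bars for TMM scaling and open points for total-count scaling. Most filled points lie left of 0, while 42 genes change sign on the total-count scale, where the all-gene median (dashed line) is 0.564.

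The 4 catalytic and membrane subunits of complex II all fell on the TMM scale, with a median of -0.56, against 27.8% of all tested genes. With total-count scaling none was lower and 1, Sdhc, was higher (median 0.01), against 7.72% and 63.9% of all tested genes. Sdha, the flavoprotein that oxidises succinate (chr13:74322254-74350280, minus strand), was at 514, 533, 532 and 517 CPM in controls and at 338, 329, 354 and 336 CPM in knockdown. The groups were narrow and far apart. Its log2 fold change was -0.63 ± 0.07 (adjusted p = 2.6e-05) on the TMM scale and -0.06 ± 0.07 with total counts. Sdhb, the iron-sulfur subunit (chr4:140961203-140979193, plus strand), had 174, 173, 172 and 163 CPM in controls and 93.8, 96.0, 120 and 101 CPM in knockdown. No sample of a group reached the other group, and knockdown replicate 3 was nearest to the controls. This gene had the lowest log2 fold change of all members, -0.73 ± 0.09 (adjusted p = 4e-05), and -0.17 ± 0.07 (adjusted p = 0.0547) with total counts. Sdhd, a membrane anchor that helps bind coenzyme Q, was at 226, 234, 245 and 204 CPM in controls and 149, 164, 176 and 156 CPM in knockdown. Its log2 fold change was -0.49 ± 0.08 on the TMM scale and 0.08 ± 0.07 with total counts. Sdhc, the other anchor, changed by -0.39 ± 0.08 on the TMM scale (adjusted p = 0.00177) and by 0.17 ± 0.07 with total counts.

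Of the 4 assembly factors Sdhaf1 to Sdhaf4, 1 fell on the TMM scale, Sdhaf3, which helps mature the iron-sulfur subunit, against 27.8% of all tested genes. It was at 5.19, 6.31, 7.15 and 6.17 CPM in controls and 3.44, 4.65, 4.92 and 5.05 CPM in knockdown, with a log2 fold change of -0.46 ± 0.16 (adjusted p = 0.034), which was 0.11 ± 0.17 with total counts. That call was lost when control replicate 2 or 3, or knockdown replicate 1 or 2, was left out, at adjusted p values of 0.0682, 0.0933, 0.0784 and 0.0606. It was also lost with upper-quartile factors (adjusted p = 0.0714) and with no filter (0.0601). Sdhaf1, Sdhaf2 and Sdhaf4 had log2 fold changes of 0.06 ± 0.17, 0.08 ± 0.11 and -0.12 ± 0.14 and did not pass. Total-count scaling called all 3 higher, at 0.61, 0.65 and 0.45.

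In complex III, 7 of 9 subunits fell on the TMM scale (median -0.50) and none rose, against 27.8% and 29.5% of all tested genes. With total counts none was lower and 1 was higher (median 0.07), against 7.72% and 63.9% of all tested genes. Uqcrfs1, the Rieske iron-sulfur protein that takes electrons from coenzyme Q (chr13:30540308-30545362, minus strand), was at 240, 238, 250 and 221 CPM in controls and 128, 146, 153 and 152 CPM in knockdown. The gap between the groups was wider than the range within either. Its log2 fold change was -0.71 ± 0.08 (adjusted p = 2.81e-05) on the TMM scale and -0.14 ± 0.07 with total counts. Uqcrb, a subunit near the quinone site (chr13:66900617-66905378, minus strand), had 89.9, 89.0, 84.8 and 82.1 CPM in controls and 52.0, 54.0, 58.0 and 59.6 CPM in knockdown. Samples of each group lay close together. The fitted change was -0.63 ± 0.07 on the log2 scale (adjusted p = 3.12e-05) and -0.06 ± 0.07 with total counts, and the gene shares exon bases with Gm10767 on the opposite strand. Cyc1, the haem protein cytochrome c1 (chr15:76343523-76346260, plus strand), had 210, 206, 213 and 192 CPM in controls and 115, 127, 166 and 129 CPM in knockdown. Knockdown replicate 3 again stood above its group without reaching the controls. In log2 the change was -0.61 ± 0.11 (adjusted p = 0.000658), and -0.05 ± 0.09 with total counts.

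The core proteins Uqcrc1 and Uqcrc2, and the small subunits Uqcrh and Uqcrq, had log2 fold changes between -0.54 and -0.45 on the TMM scale and between 0.03 and 0.12 with total counts. Uqcr10 and Uqcr11, small subunits of the membrane part, did not pass (-0.15 ± 0.12 and -0.31 ± 0.13). Without knockdown replicate 3 both passed as lower, at -0.30 (adjusted p = 0.0142) and -0.46 (adjusted p = 0.00158). With total counts Uqcr10 passed as higher, at 0.41 (adjusted p = 0.00538), and Uqcr11 did not pass, at 0.25. The assembly factors Uqcc1 and Uqcc3, which act on newly made cytochrome b, fell by 0.44 and 0.41 on the log2 TMM scale, and with total counts were at 0.13 and 0.15.

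Uqcc2 was the member of complex III that went the other way. This assembly factor (chr17:27122663-27133916, minus strand), a partner of Uqcc1, was at 7.01, 6.59, 5.76 and 7.13 CPM in controls and 7.57, 8.08, 9.18 and 9.03 CPM in knockdown. The groups did not overlap, but the highest control and the lowest knockdown sample were close. The log2 fold change was 0.35 ± 0.12 (adjusted p = 0.0294), and 0.92 ± 0.13 with total counts. Leaving out any of control replicates 2 and 3 and knockdown replicates 3 and 4 ended the call, at adjusted p values of 0.0669, 0.0844, 0.0607 and 0.0709, and so did the fit of samples coded C alone (adjusted p = 0.0585).

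Cycs, the cytochrome c that shuttles between complexes III and IV (chr6:50562563-50566538, minus strand), was at 108, 92.2, 106 and 87.2 CPM in controls and 79.0, 85.5, 78.2 and 91.0 CPM in knockdown. Here the groups overlapped, since knockdown replicate 4 lay above control replicate 4. The fitted log2 change was -0.24 ± 0.09 (adjusted p = 0.0428) on the TMM scale and 0.34 ± 0.08 (adjusted p = 0.00392) with total counts. On leaving out control replicate 1, control replicate 3 or any of knockdown replicates 1 to 3 it did not pass, with adjusted p values of 0.12, 0.11, 0.108, 0.0737 and 0.0924. Nor did it pass with upper-quartile factors (adjusted p = 0.155), with no filter (0.115) or with the replicate number as a block (0.0946).

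**Figure D2:**
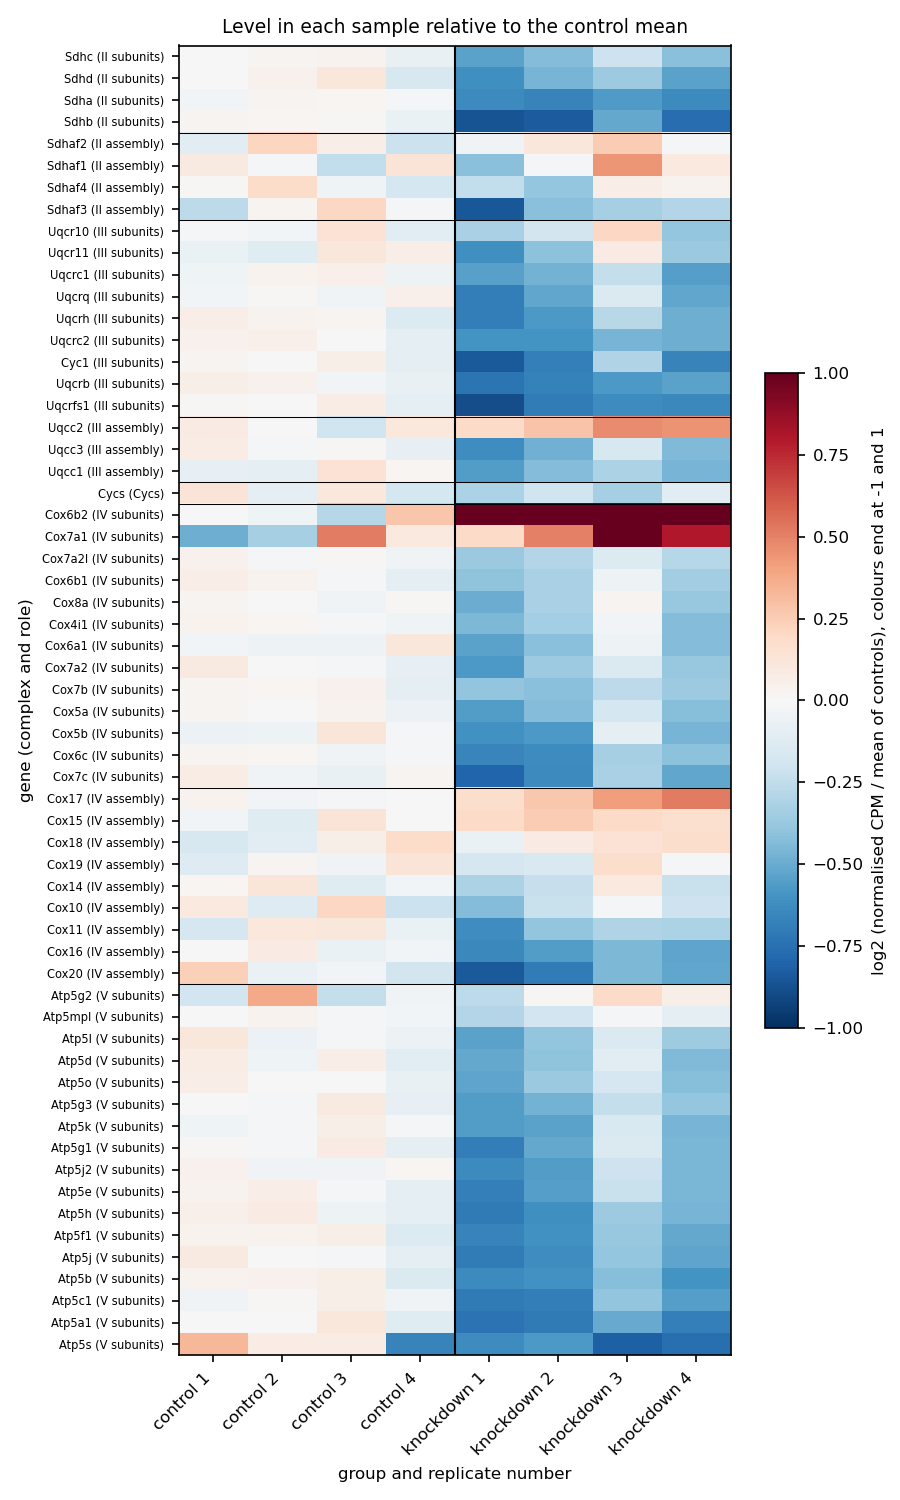
Heat map of the level of each tested gene in each of the 8 samples, as log2 of normalised CPM over the control mean, with colours ending at -1 and 1. In the knockdown columns most genes are below the control mean on this TMM scale, 40 of the 44 lower genes have their highest knockdown value in replicate 3, and the direction flips for 42 genes with total-count scaling.

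Among the 13 tested subunits of complex IV, 11 fell and 1 rose on the TMM scale (median -0.35), against 27.8% and 29.5% of all tested genes. With total-count scaling 9 passed as higher and none as lower (median 0.21), against 63.9% and 7.72% of all tested genes. Cox4i1, the regulatory subunit through which ATP slows the enzyme (chr8:120668222-120674207, plus strand), was at 400, 396, 389 and 380 CPM in controls and 286, 309, 385 and 290 CPM in knockdown. Knockdown replicate 3 lay inside the control range, and the 3 other knockdown samples lay below it. Its fitted log2 fold change was -0.30 ± 0.10 (adjusted p = 0.0241) and 0.26 ± 0.09 with total counts. This call was lost on leaving out control replicate 1, control replicate 2, or knockdown replicate 1, 2 or 4 (adjusted p = 0.0549, 0.0524, 0.069, 0.0596 and 0.066). It was also lost in samples coded C alone (adjusted p = 0.0698) and with upper-quartile factors (0.0658). Cox5a, a subunit on the matrix side next to Cox4i1, had 114, 111, 114 and 107 CPM in controls and 76.0, 83.0, 99.2 and 83.4 CPM in knockdown. Its groups did not overlap, and the log2 fold change was -0.39 ± 0.09 (adjusted p = 0.0027), against 0.18 ± 0.07 with total counts. Cox7c, a small membrane subunit (chr13:86044816-86046904, minus strand), had 141, 131, 128 and 137 CPM in controls and 77.7, 86.5, 107 and 93.5 CPM in knockdown. It was the subunit of complex IV that fell furthest on the TMM scale, at -0.56 ± 0.10 (adjusted p = 0.00059), and was at 0.00 ± 0.09 with total counts. Cox5b, Cox6c, Cox7a2, Cox7a2l and Cox7b also fell without overlap, by between 0.27 and 0.50 on the log2 TMM scale, with total-count values from 0.06 to 0.30.

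Cox6a1, Cox6b1 and Cox8a were called lower although 1 or more knockdown samples reached the controls. Cox6a1 had 319, 313, 314 and 351 CPM in controls and 223, 242, 314 and 239 CPM in knockdown, with a log2 fold change of -0.35 ± 0.11 (adjusted p = 0.0172) and 0.21 ± 0.10 with total counts. Cox8a had 168, 165, 160 and 166 CPM in controls and 117, 132, 168 and 127 CPM in knockdown, with -0.28 ± 0.11 (adjusted p = 0.0422) and 0.28 ± 0.09 with total counts. In both genes only knockdown replicate 3 was among the controls. The call for Cox8a was lost without any 1 sample except knockdown replicate 3, with adjusted p values from 0.057 (without control replicate 4) to 0.111 (without knockdown replicate 1). That for Cox6b1 was lost when control replicate 1 or 2 was left out (adjusted p = 0.055 and 0.0504), and when knockdown replicate 1, 2 or 4 was (0.0592, 0.0556 and 0.0532). In samples coded C alone the calls for Cox6a1 and Cox8a were lost (adjusted p = 0.0829 and 0.126). Those for Cox6b1 and Cox8a were lost with upper-quartile factors (0.0629 and 0.114) and with no filter (0.0551 and 0.076).

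Cox6b2 was the member that rose most. Cox6b2 (chr7:4751792-4753094, minus strand) encodes the form of subunit VIb known from testis, and Cox6b1 encodes the form of other tissues, a subunit on the outer face where the monomers of the enzyme meet. It was at 3.51, 3.41, 2.88 and 4.25 CPM in controls and at 13.5, 16.7, 18.2 and 17.7 CPM in knockdown, from 73, 73, 56 and 93 counts and from 428, 574, 530 and 689 counts. Every knockdown sample was above 3 times the highest control, and the groups were compact. The fold change was 4.69, or 2.23 ± 0.15 on the log2 scale (adjusted p = 1.05e-06), and 2.79 ± 0.16 with total counts. Its direction and call held under every alternative and without any 1 sample, and leaving out 1 sample gave values between 2.15 and 2.33. The gene shares no exon bases with another gene. Of its neighbours that were tested, Kmt5c rose by 0.40 ± 0.11 (adjusted p = 0.00856) and Ube2s by 0.74 ± 0.08 (adjusted p = 1.5e-05), while Tmem150b, Tmem238 and Rpl28 did not pass.

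Cox6b1 was at 155, 152, 147 and 138 CPM in controls and 112, 118, 143 and 116 CPM in knockdown, and its log2 fold change was -0.28 ± 0.09 (adjusted p = 0.0204) on the TMM scale and 0.29 ± 0.07 with total counts. Of the counts of both genes together, Cox6b2 held 1.92 to 2.98% in the 4 controls and 10.8 to 13.2% in the 4 knockdown samples. This share does not depend on the scaling between samples, and the groups lay far apart. The log2 ratio of Cox6b2 to Cox6b1, with 0.5 CPM added to each, rose from -5.22 ± 0.25 to -2.85 ± 0.14 (SD, n = 4 per group), a difference of 2.37. Its two-sided exact permutation p was 0.0286, the smallest that 4 against 4 allows, and 0.0714 after Benjamini-Hochberg adjustment over the 5 pairs tested, so it did not pass the threshold of 0.05 after adjustment. At this smallest p, the adjusted value depends on the p-values of the other pairs and not on the size of the difference.

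**Figure D3:**
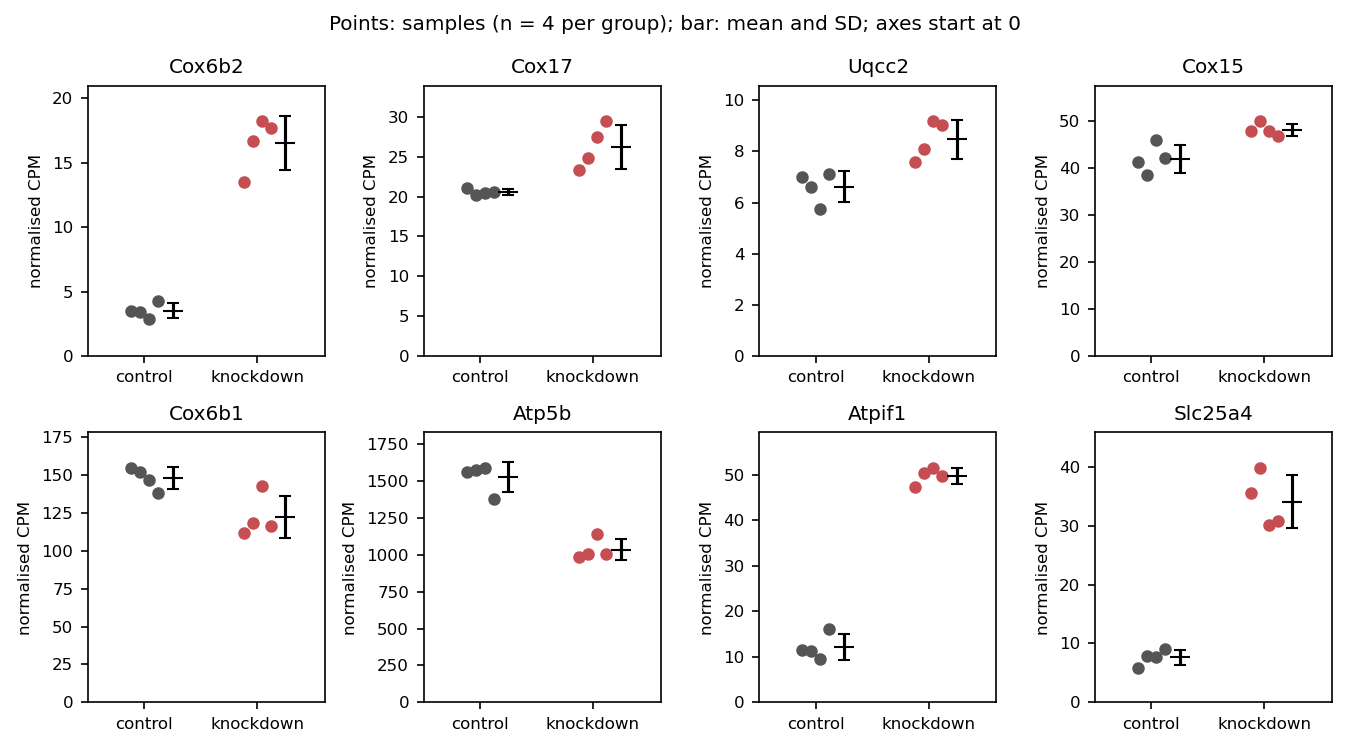
Normalised CPM (vertical axes starting at 0) in each of the 4 control and 4 knockdown samples for Cox6b2, Cox17, Uqcc2, Cox15, Atpif1 and Slc25a4, which were called higher, and for Cox6b1 and Atp5b, which were called lower on this TMM scale and were above 0 with total counts, with the mean and SD beside the points. Cox6b2 moves from 2.88 to 4.25 CPM in controls to 13.5 to 18.2 CPM in knockdown, and the shifts of Uqcc2, Cox17 and Cox15 are smaller.

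The muscle and heart form Cox7a1 was near the limit of detection. It was at 0.336, 0.374, 0.669 and 0.502 CPM in controls and 0.536, 0.669, 1.10 and 0.821 CPM in knockdown, with overlapping groups, and only 2 of 4 controls had 10 or more counts against 4 of 4 knockdown samples, so it passed the filter on low counts mainly through the knockdown group. Its fitted log2 fold change was 0.73 ± 0.33 (adjusted p = 0.0828), and 1.28 ± 0.33 (adjusted p = 0.00462) with total counts. Cox7a2, the form used in liver, was at 71.0, 66.4, 65.8 and 63.0 CPM in controls and 44.7, 51.9, 60.3 and 51.3 CPM in knockdown, and fell by 0.35 on the log2 TMM scale (0.21 with total counts). The log2 ratio of Cox7a1 to Cox7a2 was -6.12 ± 0.27 in controls and -5.37 ± 0.12 in knockdown (SD, n = 4), a difference of 0.75 with an exact permutation p of 0.0286 and an adjusted p of 0.0714. The 0.5 CPM added to each gene is close in size to these Cox7a1 levels. Computed in this way, the ratio of Cox7b2 to Cox7b differed by 0.36 with 0 counts of Cox7b2, so this measure can rise without its numerator. Cox7a2l, which helps join complexes III and IV into supercomplexes, was at 104, 100, 102 and 99.1 CPM in controls and 78.5, 82.8, 92.3 and 83.5 CPM in knockdown. Its log2 ratio to Cox7a2 was 0.61 ± 0.04 and 0.70 ± 0.08 (SD, n = 4), a difference of 0.09 with an exact permutation p of 0.114 and an adjusted p of 0.143. The ratios of Cox7a1 and of Cox7a2l therefore did not pass after adjustment.

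Other tissue forms of complex IV were at or near 0. Cox4i2, the form known from lung, had 1, 0, 0 and 0 counts in controls and 3, 4, 5 and 6 counts in knockdown, a ratio of 11.2 with an exact 95% counting interval of 1.77 to 467 that covers counting error only. The counts were few but higher in each knockdown sample. Cox6a2, a heart and muscle form, had 0, 1, 8 and 8 counts in controls and 5, 1, 7 and 5 in knockdown, a ratio of 0.659 with an interval of 0.321 to 1.36. Cox8b, another such form, had 2 counts in knockdown replicate 3 and 0 in all other samples, Cox20b had 1 count in each of control replicates 1 and 2 and 0 elsewhere, and Cox6c2, Cox7b2, Cox8c and the second Atp5o identifier were listed at 0 in all 8 samples. Of 7 muscle and heart markers 1 had enough counts for the test. Their summed level ranged from 0.0468 to 8.75 CPM in controls and from 0.465 to 2.44 CPM in knockdown, with 1 against 0 counts of Myh6 and 4 against 4 of Myh7. Control replicate 3 had 3.76 CPM of Ckm, 3.29 of Mb and 0.926 of Ckmt2, which were at 0 in the other controls. In knockdown Ckm was at 1.58 CPM in replicate 3 and at 0.347 or less elsewhere, and Mb and Ckmt2 had 6 and 1 counts in all. The part of these muscle transcripts in the values of Cox6a2, Cox7a1 and Cox8b was not tested.

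Of the 9 assembly factors of complex IV, 3 fell and 2 rose on the TMM scale (median -0.16), against 27.8% and 29.5% of all tested genes, and 6 were higher with total counts (median 0.40), against 63.9%. Cox20, a chaperone of mitochondrially made subunit 2 (chr1:178319130-178322693, plus strand), was at 10.4, 8.41, 8.65 and 7.77 CPM in controls and 4.92, 5.41, 6.43 and 6.13 CPM in knockdown. The log2 fold change was -0.62 ± 0.14 (adjusted p = 0.00284) and -0.05 ± 0.13 with total counts, and its exons overlap those of Hnrnpu on the other strand. Cox16, which acts on the same subunit, was at 17.1, 18.0, 16.3 and 16.7 CPM in controls and 10.9, 11.6, 12.4 and 11.8 CPM in knockdown. Its groups were compact and apart, with -0.54 ± 0.09 (adjusted p = 0.000316) on the TMM scale and 0.02 ± 0.09 with total counts. Its exons overlap those of Gm20498 on the same strand and its deposited counts were not whole in any of the 8 samples, so some of its reads cannot be assigned with certainty. Cox11, needed for a copper site, fell by 0.40 on the log2 TMM scale and was at 0.16 with total counts.

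Cox17, the copper chaperone that supplies the oxidase, rose. It was at 21.1, 20.2, 20.4 and 20.6 CPM in controls and 23.3, 24.8, 27.5 and 29.5 CPM in knockdown, so that every knockdown sample was above every control. The log2 fold change was 0.35 ± 0.09 (adjusted p = 0.00573), and 0.92 ± 0.09 with total counts. Its exons overlap those of Gm21987 on the same strand, so some of its reads cannot be assigned with certainty. Cox15, which makes haem a for the oxidase, was at 41.2, 38.5, 45.9 and 42.1 CPM in controls and 47.8, 49.95, 48.0 and 46.8 CPM in knockdown. The groups did not overlap by a narrow margin, with 0.20 ± 0.07 (adjusted p = 0.0374) and 0.77 ± 0.09 with total counts. Its exons overlap Entpd7 and Cutc on the opposite strand, and the call held only when the sample left out was control replicate 3, the others giving adjusted p values from 0.0511 to 0.124. Cox10, which acts just before Cox15 in haem a synthesis, and Cox14, Cox18 and Cox19 did not pass, with log2 fold changes from -0.21 to 0.09. Without knockdown replicate 3, Cox14 passed as lower at -0.26 (adjusted p = 0.0269). Total-count scaling called Cox10, Cox14, Cox18 and Cox19 higher, at 0.36, 0.40, 0.65 and 0.52.

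In complex V, 15 of 17 tested genes were lower on the TMM scale (median -0.46), 14 of them without overlap, and none was higher. On that scale 27.8% of all tested genes were lower and 29.5% higher, and 24.7% lay lower without overlap. With total counts none was lower and 5 were higher (median 0.11), against 7.72% and 63.9% of all tested genes. Atp5b, the catalytic beta subunit (chr10:128083273-128090391, plus strand), was the most abundant member per kilobase of the authors' deposited gene length, at 796 CPM per kilobase in controls and 539 in knockdown. It was at 1562, 1575, 1588 and 1376 CPM in controls and 982, 1003, 1137 and 1006 CPM in knockdown. The lowest control, replicate 4, was still above the highest knockdown sample, replicate 3. The log2 fold change was -0.56 ± 0.09 (adjusted p = 0.000381) and 0.01 ± 0.07 with total counts. Atp5a1, the alpha subunit of the catalytic ring, was at 1210, 1207, 1309 and 1113 CPM in controls and 723, 742, 855 and 754 CPM in knockdown. It changed by -0.65 ± 0.09 (adjusted p = 0.000132) on the TMM scale and by -0.09 ± 0.07 with total counts. Atp5c1, the gamma subunit that turns inside the ring (chr2:10056016-10080510, minus strand), had 227, 233, 241 and 226 CPM in controls and 142, 143, 176 and 158 CPM in knockdown. All controls were well above all knockdown samples, with -0.58 ± 0.08 (adjusted p = 0.000169), and -0.02 ± 0.07 with total counts.

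Atp5s, coupling factor B, had the lowest fold change in the complex but the least steady values. It was at 7.88, 6.59, 6.59 and 3.93 CPM in controls and 4.04, 4.19, 3.54 and 3.69 CPM in knockdown, so control replicate 4 lay among the knockdown samples. The fitted log2 change was -0.69 ± 0.20 (adjusted p = 0.0121) and -0.10 ± 0.19 with total counts. Stalk and membrane subunits (Atp5d, Atp5e, Atp5f1, Atp5h, Atp5j, Atp5j2, Atp5k, Atp5l and Atp5o) fell without overlap, by between 0.35 and 0.55 on the log2 TMM scale, and with total counts lay between 0.01 and 0.22. Atp5mpl, a small proteolipid, did not pass at -0.15 ± 0.08, and passed as lower at -0.19 (adjusted p = 0.043) without knockdown replicate 3. It passed as higher with total counts, at 0.42 (adjusted p = 0.000478).

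The 3 genes for the rotating c subunit make the same mature protein from different precursors. Atp5g3 was at 322, 320, 344 and 304 CPM in controls and 220, 233, 274 and 247 CPM in knockdown, and Atp5g1 at 120, 118, 126 and 112 CPM in controls and 73.8, 83.5, 107 and 86.9 CPM in knockdown. Both were apart between the groups, with log2 fold changes of -0.41 ± 0.09 and -0.44 ± 0.11 (0.16 ± 0.07 and 0.13 ± 0.09 with total counts). Atp5g2 was far lower, at 3.41, 5.05, 3.29 and 3.79 CPM in controls and 3.25, 3.92, 4.44 and 4.05 CPM in knockdown, with a log2 fold change of 0.01 ± 0.18 that did not pass. It passed as higher with total counts, at 0.57 (adjusted p = 0.0181). The log2 ratio of Atp5g1 to Atp5g3 was -1.44 ± 0.01 in controls and -1.47 ± 0.09 in knockdown (SD, n = 4), with single-sample differences from -0.14 to 0.09 and an exact permutation p of 0.486. That of Atp5g2 to Atp5g3 was -6.22 ± 0.28 and -5.79 ± 0.07 (SD, n = 4), a difference of 0.43 with an exact permutation p of 0.0571 and an adjusted p of 0.0952.

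Over all 4 complexes, 37 of 43 tested subunits fell and 1 rose on the TMM scale (median -0.44, and 0.13 with total counts), against 6 lower and 3 higher of 16 tested assembly factors (median -0.14, and 0.42 with total counts). Of all tested genes 27.8% were lower and 29.5% higher on the TMM scale. Control levels of assembly factors ran from 1.44 CPM per kilobase for Sdhaf3 to 46.3 for Cox17, and those of subunits from 0.970 for Cox7a1 to 796 for Atp5b. A difference between the classes was not tested. By sample, the median subunit was between 0.07 below and 0.03 above the control mean on the log2 TMM scale in the controls, and at -0.60, -0.51, -0.21 and -0.46 in knockdown replicates 1 to 4. Knockdown replicate 3 was thus the nearest to the controls, replicate 1 was the lowest of its group for 38 of the 44 lower members, and with replicate 3 left out 47 members fell and 2 rose. Without control replicate 4, 43 fell and 3 rose.

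**Figure D4:**
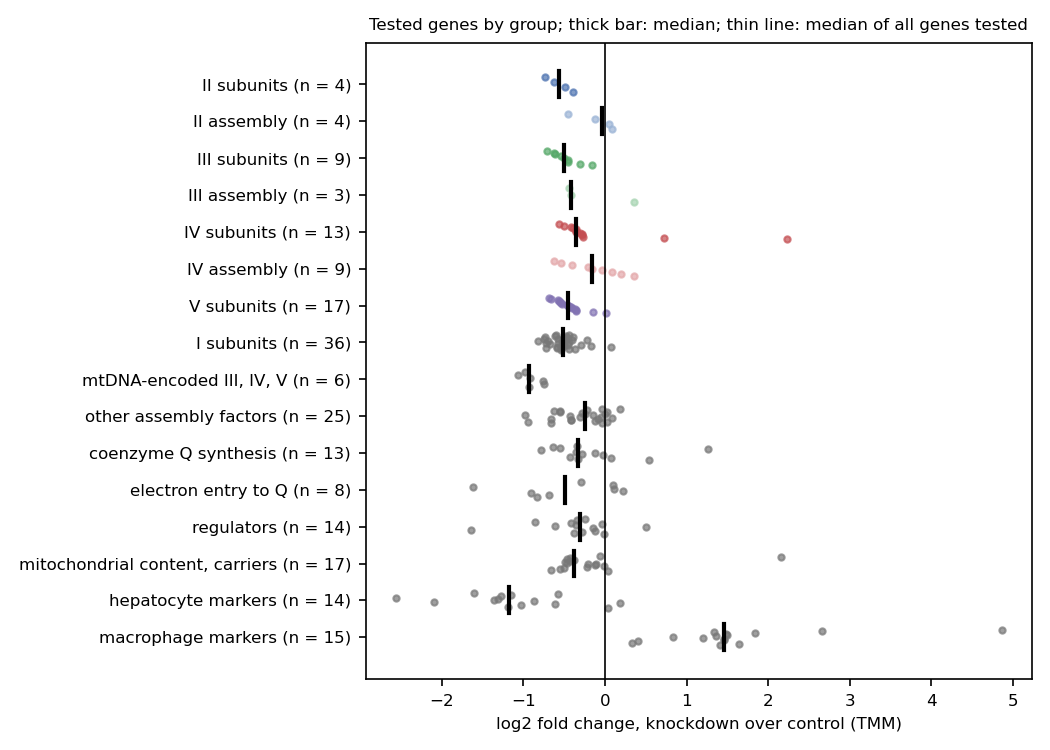
Log2 fold change (TMM scale) of each tested gene, in rows by complex and role and for related gene lists and cell type markers, with thick bars for medians and a thin line for the median of all genes tested. Medians of the subunits of each complex lie between -0.56 and -0.35 and those of their assembly factors between -0.42 and -0.03, and all of these are above 0 with total-count scaling (0.01 to 0.53).

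Among genes of complexes IV and V that carry other names, the regulator Atpif1 rose about as much as Cox6b2. Atpif1, the inhibitor that stops ATP synthase from running backwards, was at 11.5, 11.2, 9.47 and 16.1 CPM in controls and 47.3, 50.3, 51.5 and 49.7 CPM in knockdown. Every knockdown sample was far above the controls, with a log2 fold change of 2.04 ± 0.14 (adjusted p = 1.19e-06) that was 2.60 with total counts. Ndufa4, a subunit of complex IV despite its name, and Usmg5, a membrane subunit of complex V, fell by 0.34 and 0.42 on the log2 TMM scale. Their total-count values were 0.23 and 0.14, and Ndufa4 passed as higher there (adjusted p = 0.0101). Ndufa4l2 did not pass.

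The genes that mitochondrial DNA contributes to complexes III, IV and V were lower still. All 6 fell on the TMM scale (median -0.93), against 27.8% of all tested genes. Of the 6, 3 also fell with total counts (median -0.36), against 7.72% of all tested genes. mt-Atp6 went from 932 ± 98.9 to 444 ± 37.7 CPM (SD, n = 4), a log2 fold change of -1.07 ± 0.10 (adjusted p = 9.62e-06), and mt-Cytb, the cytochrome b of complex III, from 9757 ± 224 to 5108 ± 478 CPM, at -0.93 ± 0.11. mt-Atp8 and mt-Co2 were at -0.98 ± 0.10 and -0.76 ± 0.11. The ratio of mitochondrial to nuclear summed CPM, which no scaling between samples changes, was 6.51, 6.36, 6.03 and 6.58 in controls and 4.81, 4.63, 4.19 and 5.42 in knockdown for complex III. For complex IV it was 13.1 ± 0.61 in controls and 9.86 ± 1.23 in knockdown (SD, n = 4), and for complex V 0.273 ± 0.022 and 0.194 ± 0.027. In each of these complexes the ratio was lower in every knockdown sample than in every control. These ratios were not tested.

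Upstream of complex III, 33 of 36 complex I subunits fell and none rose on the TMM scale (median -0.52), against 1 lower and 4 higher with total counts (median 0.05). For each list in this paragraph, the shares of all tested genes were 27.8% lower and 29.5% higher on the TMM scale. Their shares with total counts were 7.72% and 63.9%. The lowest p-values belonged to Ndufb3, Ndufs1, Ndufa9 and Ndufa6, with log2 fold changes of -0.67, -0.75, -0.58 and -0.73. Of 8 genes that feed electrons to coenzyme Q from other substrates 5 fell on the TMM scale (median -0.49). With total counts 3 were lower and 4 higher, against 7.72% and 63.9% of all tested genes. The electron-transferring flavoprotein of fatty acid oxidation, Etfa and Etfb, and its dehydrogenase Etfdh changed by -0.83, -0.68 and -0.91, and Prodh, the proline dehydrogenase, by -1.62 ± 0.17 (170 ± 19.4 to 55.5 ± 14.7 CPM). Total-count values of Etfa, Etfb, Etfdh and Prodh were -0.26, -0.12, -0.34 and -1.05. Of 13 genes of coenzyme Q synthesis 7 fell and 2 rose on the TMM scale. With total counts 6 passed as higher, where 63.9% of all tested genes did. Coq8b, a kinase-like protein of that pathway, went from 14.9, 15.4, 15.2 and 16.1 to 31.1, 41.0, 43.2 and 33.2 CPM, with no overlap and a log2 fold change of 1.27 ± 0.11 (adjusted p = 6.09e-06). Its relative Coq8a changed by -0.79 ± 0.13, Coq9 by -0.55 ± 0.07 and Coq10a by -0.63 ± 0.09. On the total-count scale Coq8b was at 1.83, and Coq8a, Coq9 and Coq10a were at -0.23, 0.02 and -0.07. The other riser, Pdss1, which makes the side chain, was named after its value was seen (0.54 ± 0.17, adjusted p = 0.0195). Its call was lost in samples coded C alone (adjusted p = 0.0719), when control replicate 1 or 2 was left out (0.0575 and 0.0508) and when knockdown replicate 2 was (0.0634).

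Of 25 tested assembly factors of complexes III to V outside the symbol rule, 12 fell and none rose on the TMM scale (median -0.25), against 1 lower and 14 higher with total counts. They included the copper carrier Sco2 (-0.94 ± 0.12), the haem insertion factor Surf1 (-0.66 ± 0.09), Taco1 (-0.67 ± 0.08), which activates translation of mitochondrial Co1, and the mitochondrial mRNA binding protein Lrpprc (-0.55 ± 0.08). Total-count values of Sco2, Surf1, Taco1 and Lrpprc were -0.38, -0.09, -0.10 and 0.03. Among 14 regulators of respiratory genes 9 fell and 1 rose on the TMM scale (median -0.31), with 2 lower and 8 higher with total counts. For both lists, the shares of all tested genes were 27.8% lower and 29.5% higher on the TMM scale, and 7.72% and 63.9% with total counts. Tfb2m, which starts mitochondrial transcription, was at 38.5, 39.1, 37.8 and 37.8 CPM in controls and 20.01, 20.99, 21.1 and 22.3 CPM in knockdown, a clear separation with -0.86 ± 0.07 (adjusted p = 3.04e-06), and -0.29 (adjusted p = 0.00676) with total counts. The nuclear receptor Esrra changed by -0.61 ± 0.09, Gabpa by -0.38 ± 0.07 and Yy1 by -0.35 ± 0.07. Their total-count values were -0.05, 0.19 and 0.22, and Yy1 passed as higher there (adjusted p = 0.0162). Another 4 were named after their values were seen: the coactivator Ppargc1a was at 55.3, 20.6, 43.3 and 19.2 CPM in controls and 7.60, 13.3, 14.0 and 9.39 CPM in knockdown (-1.64 ± 0.34), its relative Pprc1 rose (0.50 ± 0.14), and Nrf1 and Tfam did not pass (-0.01 ± 0.12 and -0.04 ± 0.09). On the total-count scale Ppargc1a was at -1.06 and Pprc1 at 1.08. Nrf1 and Tfam passed as higher there, at 0.56 and 0.53 (adjusted p = 0.000839 and 0.000439).

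Genes of general mitochondrial content gave a mixed picture, with 11 lower and 1 higher of 17 on the TMM scale (median -0.38) and none lower and 9 higher with total counts. Of all tested genes, 27.8% were lower and 29.5% higher on the TMM scale, and 7.72% lower and 63.9% higher with total counts. The chaperone Hspd1, the import gene Timm23 and the prohibitin Phb2 changed by -0.65 ± 0.10, -0.49 ± 0.08 and -0.47 ± 0.09 on the TMM scale. Their total-count values were -0.08, 0.07 and 0.10. Slc25a4, the ADP/ATP carrier form known from heart and muscle, rose from 5.86, 7.95, 7.77 and 9.04 CPM in controls to 35.5, 39.8, 30.1 and 30.9 CPM in knockdown. The groups were far apart, with a log2 fold change of 2.15 ± 0.14 (adjusted p = 9.65e-07). Slc25a5, the form that was more abundant in these livers, and the citrate synthase gene Cs, both named after their values were seen, did not pass on the TMM scale, with 489 ± 15.5 against 469 ± 4.33 CPM and 159 ± 4.81 against 164 ± 3.05 CPM (SD, n = 4). Slc25a5 and Cs passed as higher with total counts, at 0.51 and 0.61 (adjusted p = 8.55e-05 and 3.65e-05).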

How the data were processed

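Per the labels' protocols, liver RNA of 8 samples was isolated in Trizol, and DNase I and a ribosomal RNA depletion kit were then used. The submitters' processing notes name fastp 0.19.5, Bowtie2 2.2.9, GATK 3.8 and SAMtools 1.9 with the mm10 assembly. The sources used here do not give the counting program, the annotation or the strandedness. The values the authors deposited are estimated counts (also called expected counts) with no normalisation, and 10.9% of them were not whole and were rounded. Of 56181 entries, 645 assembled loci without a gene identifier were left out. The authors' deposited table of their own comparison gives a fold change (a linear ratio), its log2 value, a p-value and an adjusted p-value per gene, per the file headers, and a gene length. Columns were assigned by the code in each sample's label, and totals ranged from 24371461 to 32389444. Between replicates of a group chi-square per degree of freedom was at least 9.64, above counting error.

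In R 4.3.3 with edgeR 4.0.16, filterByExpr (minimum count 10) kept 15375 genes, with TMM factors, glmQLFit and glmQLFTest. The p-values were adjusted by Benjamini-Hochberg over the genes tested, and a gene is said to have risen or fallen where the adjusted p was under 0.05. Log2 fold changes are knockdown over control with a standard error. Total-count values are the same fit with no normalisation factors. Isoform ratios used log2 of CPM plus 0.5 and exact two-sided permutation tests (Python 3.11.15, SciPy 1.17.1). Of 9 pairs, 5 had both genes tested. Positions are those of GENCODE mouse release 21, and 21 of the 60 tested members share exon bases with another gene. The script for this test was also tested on simulated data with known changes.

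Alternatives were RLE, upper-quartile and total-count scaling, DESeq2 1.42.0, limma-voom (limma 3.58.1), other filters, the assembled loci kept, a covariate for the replicate number or for the letter in the sample's code, samples coded C alone, and leaving out each sample. Members and the 17 gene lists (217 symbols, 3 not matched) were chosen with earlier results of these data known. Sample values were given for core subunits, isoform pairs, the 3 members of each complex that changed most in each direction, and members called higher. Up to 4 called genes with the lowest p-values were named from each list. Cholangiocyte markers were lower for 1 and higher for 3 of 6 tested, endothelial for 2 and 1 of 10, erythroid for 1 and 1 of 6, and B cell for none of 3. These calls are on the TMM scale, where 27.8% of all tested genes were lower and 29.5% higher.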

Additional observations from a re-analysis of the deposited data

Results flagged for a closer look

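Within a group of 4, a sample was singled out where its gap to the nearest other sample took most of the group's range, which chance gives in about 1 in 20 groups. With many genes screened in both groups, some such gaps arise by chance, and whether these are more than that was not tested. Control replicate 4 stood apart in 4 genes. It was at 163 CPM for Sdhb, where the other controls ranged from 172 to 174 CPM, at 1376 CPM for Atp5b (others 1562 to 1588 CPM) and at 259 CPM for Atp5f1 (others 291 to 296 CPM). For Cox6a1 it was high instead, at 351 CPM (others 313 to 319 CPM). Knockdown replicate 3 was at 1137 CPM for Atp5b, where the other knockdown samples ranged from 982 to 1006 CPM. In Sdhb, Atp5b and Atp5f1 the groups stayed apart with these samples included.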

How the results depend on the processing

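The scaling decided the direction, and with total counts 63.9% of all tested genes passed as higher and 7.72% as lower. With total-count scaling 0 members passed as lower and 27 as higher, the members' median was 0.16, and of the lists 1 complex I subunit was lower and 4 higher, 3 mitochondrially encoded genes were lower, 1 other assembly factor was lower and 14 higher, 0 coenzyme Q genes were lower and 6 higher, 3 genes of electron entry were lower and 4 higher, 2 regulators were lower and 8 higher, and 0 content genes were lower and 9 higher. Log2 fold changes that became positive there were Sdhaf3 0.11, Sdhaf4 0.45, Sdhc 0.17, Sdhd 0.0778, Uqcc1 0.13, Uqcc3 0.15, Uqcr10 0.41, Uqcr11 0.25, Uqcrc1 0.12, Uqcrc2 0.0324, Uqcrh 0.0673, Uqcrq 0.11, Cox10 0.36, Cox11 0.16, Cox14 0.40, Cox16 0.0237, Cox19 0.52, Cox4i1 0.26, Cox5a 0.18, Cox5b 0.14, Cox6a1 0.21, Cox6b1 0.29, Cox6c 0.0635, Cox7a2 0.21, Cox7a2l 0.30, Cox7b 0.21, Cox7c 0.0047, Cox8a 0.28, Atp5b 0.0057, Atp5d 0.21, Atp5e 0.10, Atp5f1 0.0319, Atp5g1 0.13, Atp5g3 0.16, Atp5h 0.0349, Atp5j 0.0146, Atp5j2 0.11, Atp5k 0.14, Atp5l 0.22, Atp5mpl 0.42, Atp5o 0.20 and Cycs 0.34. Under all other settings run, 39 to 47 members were lower.

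Near 0, Cox19 turned to 0.0396 with upper-quartile factors, 0.0029 in samples coded C alone, 0.0046 without control replicate 4 and 0.0031 without knockdown replicate 1, in a range from -0.11 with a sample left out. Atp5g2 turned to -0.0217 in samples coded C alone and ranged from -0.0646 to 0.16 with a sample left out, and Sdhaf1 turned to -0.02 without control replicate 3 and -0.0952 without knockdown replicate 3, in a range up to 0.18. The cause of these changes was not tested.

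Higher members numbered 2 in samples coded C alone, 2 with the replicate number as a block, and 2 without control replicate 2, knockdown replicate 3 or knockdown replicate 4. In both of the first settings Cox15 and Uqcc2 were the members lost (adjusted p = 0.0578 and 0.0585 in samples coded C, 0.0718 and 0.062 with the block). The replicate numbers did not pair the samples (correlations of deviations -0.128, -0.0383, 0.0584 and 0.148), and with the replicate block 44 members were lower. In samples coded C alone 1 coenzyme Q gene was higher, with Pdss1 lost, and so without control replicate 1 or 2 or knockdown replicate 2. With 1 sample left out, 39 to 47 members were lower, 2 to 3 higher, the median was -0.47 to -0.35, and 1 to 2 coenzyme Q genes were higher.

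The ratio of Cox6b2 to Cox6b1 was 2.29 to 2.48 with a sample left out, 2.43 in samples coded C alone and 2.37 with signs permuted within replicate number (block), and that of Cox7a1 to Cox7a2 0.65 to 0.85, 0.77 and 0.75. These designs cannot give an exact p below 0.0571, 0.1 and 0.125. With a pseudocount of 1 CPM the ratio of Atp5g2 to Atp5g3 differed by 0.43 with an exact permutation p of 0.0286. The counts of Cox7a1 and of the 8 members not tested were too few for a firm statement on them.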
